A study of Rattus norvegicus with 12 samples.

Results

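The 5 microRNA genes Mir142, Mir223, Mir150, Mir342 and Mir155 are transcribed mainly in white blood cells, and their levels in rat liver were followed after caffeine, dextromethorphan and both drugs. They are 5 of the 444 features of the deposited table, taken by gene name. The set was chosen by earlier FPKM results of these libraries, in which leukocyte microRNAs were lower after caffeine alone than after vehicle. All 5 were among the 293 features that were above 0 in at least 3 of the 12 libraries, the filter on low values. The livers came from male Sprague-Dawley (Jcl:SD) rats, which are outbred; oral dosing started at 7 weeks of age and lasted 5 days. The CAF group received caffeine at 120 mg/kg, the DEX group dextromethorphan hydrobromide monohydrate at 100 mg/kg, the CAF+DEX group both at those doses, and the Control group only the sterile distilled water in which the drugs were dissolved. Each group had 5 rats, liver was taken 1 h after the last dose, and 3 libraries per group were analysed. Nothing in the labels links individual rats to libraries, so p-values measure only the spread between these samples, which may be technical. The protocols also do not say whether blood was flushed from the livers.

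A microRNA is cut from a hairpin transcript and loaded onto an Argonaute protein, and it finds its target transcripts mainly through its seed, bases 2 to 8. Blood cell lineages differ in the microRNAs they keep at a high level. Mir142 is found across the haematopoietic lineages, Mir223 is a microRNA of granulocytes and monocytes, Mir150 and Mir342 are abundant in lymphocytes, and Mir155 increases when lymphocytes and macrophages are activated. Liver holds resident macrophages, lymphocytes and the blood in its vessels beside the hepatocytes.

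The mature sequences are shown because the seeds bear on whether any of the 5 could share targets with another microRNA. They do not settle whether reads were shared. RefSeq (GRCr8) gave both arms for 4 of the 5 members, and the seed is in capitals. No sequence is shown for Mir150.
rno-miR-142-5p: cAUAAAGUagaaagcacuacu
rno-miR-142-3p: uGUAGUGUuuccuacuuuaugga
rno-miR-223-5p: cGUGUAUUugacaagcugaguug
rno-miR-223-3p: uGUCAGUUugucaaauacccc
rno-miR-342-5p: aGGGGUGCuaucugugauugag
rno-miR-342-3p: uCUCACACagaaaucgcacccgu
rno-miR-155-5p: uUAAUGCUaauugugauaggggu
rno-miR-155-3p: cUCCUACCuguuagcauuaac
These 8 arms have 8 distinct seeds, and none is the seed of a microRNA from another gene among the 724 rat mature sequences searched. The 5 genes lie on 5 chromosomes of rn7. The table counts a whole gene, so the arms of a hairpin cannot be told apart in the values that follow.

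Levels are FPKM, fragments per kilobase of the gene and per 1000000 reads on the listed features. The libraries held 2863572 to 3418568 reads as recovered from the FPKM. Mir142 had 23607 to 48928 reads in a library and Mir155 had 93 to 223, so among the members the relative counting error was largest for Mir155. The recovered reads were whole in 0 libraries for Mir142 and Mir223, 1 for Mir150, 8 for Mir342 and 12 for Mir155. Elsewhere the counts of these members hold fractions of reads, whose source was not examined. Mir142 ranked 22 to 33 among all features by FPKM, Mir223 62 to 71, Mir150 71 to 78, Mir342 90 to 105 and Mir155 116 to 128. This order of the members held in 12 of 12 libraries. On the FPKM scale Mir142 stood 5.72 to 8.42 times above Mir223, and Mir223 stood 1.2 to 1.66 times above Mir150. Mir150 stood 3.2 to 5.04 times above Mir342, which stood 2.44 to 4.95 times above Mir155. The gap between Mir223 and Mir150 was the smallest, and the range of Mir223 over the libraries, 12370 to 17495 FPKM, overlaps that of Mir150, 7451 to 13407 FPKM. The annotated length used for Mir142 was 111 bases against 87 bases for its RefSeq hairpin, while the lengths of Mir223, Mir342 and Mir155 were the same in both.

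The members were chosen with the difference between CAF and Control known, so that difference is given for each as a description with no test. Differences between groups are log2 fold changes with standard errors (SE) from one limma model of all 12 libraries on log2(FPKM + 4.01), a scale that slightly understates the change of rare features. Values of a group are listed in the order of the library numbers in the column headers, which are 1, 2 and 5 for CAF and CAF+DEX, 1, 2 and 4 for DEX, and 1, 3 and 4 for Control. In bulk liver, fewer white blood cells and less of a microRNA in each of them cannot be told apart.

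Mir142 (ENSRNOG00000035633, chromosome 10, 72557857 to 72557967, plus strand, rn7) lies within the span of Tspoap1 in RefSeq. It had 93568, 80559 and 70813 FPKM in the CAF libraries and 83044, 102689 and 97311 FPKM in the CAF+DEX libraries. It had 107645, 135052 and 107586 FPKM in the DEX libraries and 121229, 128941 and 118051 FPKM in the Control libraries. The 6 libraries from rats given caffeine, alone or with dextromethorphan, all lay below the 6 libraries from rats that were not. This is a description only, because it includes the CAF and Control libraries behind the choice of members. The share of all features with this pattern was not counted. The log2 fold change was -0.60 (SE 0.11) for CAF against Control and -0.30 (SE 0.11) for CAF+DEX against DEX.

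Mir223 (ENSRNOG00000035505, chromosome X, 61141887 to 61141996, plus strand), which acts in granulocyte maturation, showed less contrast. It had 14637, 13922 and 12370 FPKM in CAF and 14507, 17148 and 13439 FPKM in CAF+DEX. It had 13612, 16036 and 15776 FPKM in DEX and 16425, 17495 and 15852 FPKM in Control. The CAF libraries lay below the Control libraries, but the CAF+DEX and DEX libraries were intermixed. Its highest library was only 1.41 times its lowest, the smallest such ratio of the 5 members. The log2 fold change was -0.28 (SE 0.10) for CAF against Control and -0.01 (SE 0.10) for CAF+DEX against DEX.

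Mir150 (ENSRNOG00000035560, chromosome 1, 95605024 to 95605108, plus strand) is a microRNA of mature B and T cells that restrains the transcription factor Myb. It had 10240, 8487 and 7451 FPKM in CAF and 9016, 13248 and 8875 FPKM in CAF+DEX. It had 9597, 13407 and 9749 FPKM in DEX and 10411, 10910 and 12710 FPKM in Control. CAF+DEX library 2 and DEX library 2 stood above all other libraries, and the coefficient of variation was 23.9% within CAF+DEX and 19.8% within DEX. The CAF libraries lay below the Control libraries by a margin of only 10240 against 10411 FPKM. The log2 fold change was -0.39 (SE 0.17) for CAF against Control and -0.08 (SE 0.17) for CAF+DEX against DEX.

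Mir342 (ENSRNOG00000035612, chromosome 6, 127565269 to 127565367, plus strand) lies within Evl, a gene for an actin regulator. It had 2473, 2363 and 1924 FPKM in CAF and 2662, 2628 and 2283 FPKM in CAF+DEX. It had 2788, 3639 and 2975 FPKM in DEX and 3000, 3414 and 3092 FPKM in Control. As for Mir142, the 6 libraries with caffeine lay below the 6 without it. This is likewise a description only, and the share of all features with this pattern was not counted. The log2 fold change was -0.50 (SE 0.12) for CAF against Control and -0.31 (SE 0.12) for CAF+DEX against DEX.

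Mir155 (ENSRNOG00000050840, chromosome 11, 23774654 to 23774718, plus strand) is made from the noncoding transcript Mir155hg. It had 500, 668 and 569 FPKM in CAF and 1091, 733 and 678 FPKM in CAF+DEX. It had 821, 846 and 832 FPKM in DEX and 897, 833 and 902 FPKM in Control. The CAF libraries were the lowest 3 of the 12, a pattern whose share of all features was not counted. CAF+DEX library 1 was the highest of all. That library had 223 reads (exact Poisson 95% interval 194.7 to 254.3), against 148 reads (125.1 to 173.9) in CAF+DEX library 5 and 93 reads (75.1 to 113.9) in CAF library 1; these intervals cover counting error only. The log2 fold change was -0.61 (SE 0.17) for CAF against Control and -0.03 (SE 0.17) for CAF+DEX against DEX, or -0.24 without CAF+DEX library 1.

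**Figure D1:**
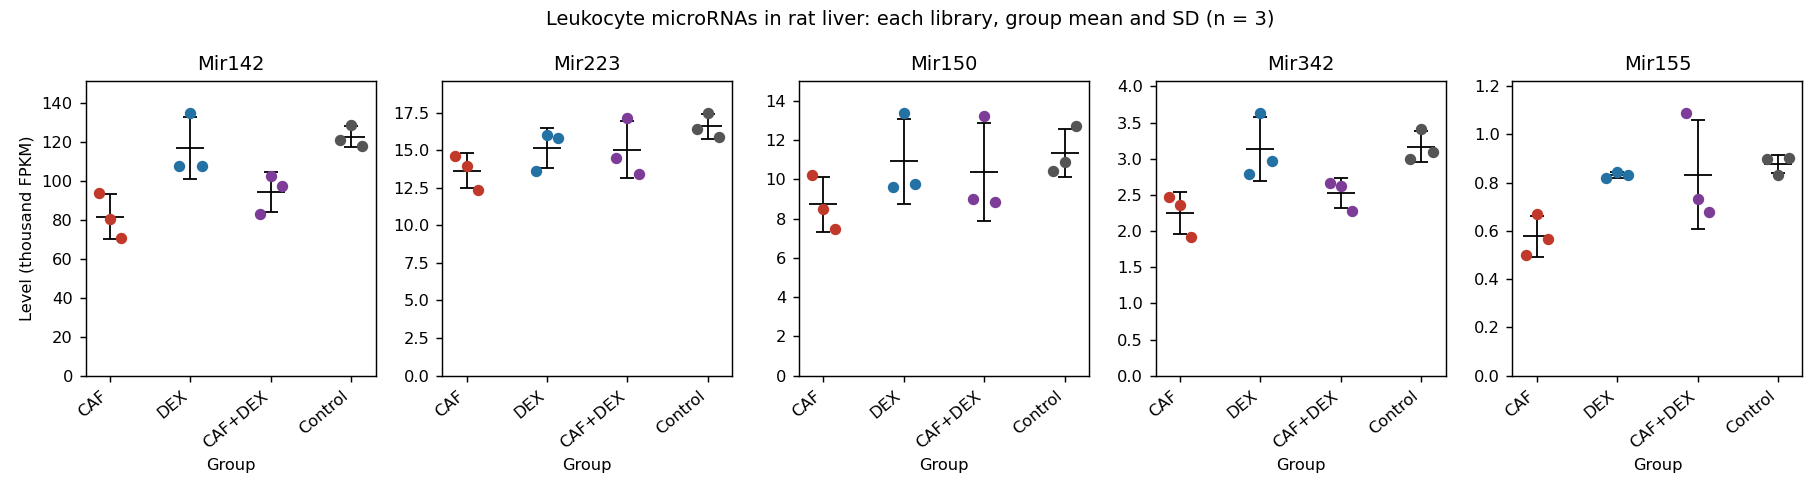
Level of each microRNA in FPKM (y axis, scaled as labelled and starting at 0) in the CAF, DEX, CAF+DEX and Control libraries (x axis), with 1 point per library and black bars for the group mean and SD (n = 3). The CAF points lie below the Control points in all 5 panels, and in the Mir155 panel 1 CAF+DEX point stands at 1091 FPKM, above all others.

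Between CAF and Control, the groups did not overlap and CAF was the lower in 5 of 5 members, as in 8.19% of the 293 tested features. At an adjusted p of 0.05 in limma, 0.683% of the tested features were called, a share given as background. It depended on the processing, with 0 features called when only the compared groups were fitted and 4 with quantile normalization. The members' median log2 fold change was -0.50, against 0.00 over all tested features. This contrast was known when the members were chosen, so nothing is read from these counts. Mir342 held the median of the members, and Mir223 had the smallest difference.

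Adding caffeine to dextromethorphan uses no library of CAF against Control, so this comparison of the caffeine difference is the one least tied to the choice of members. Its SE and p still rest on a spread estimated from all 12 libraries. Mir142 and Mir342 were lower in CAF+DEX than in DEX with no overlap between the groups, and Mir223, Mir150 and Mir155 overlapped. That is 2 of 5 members, where 8.87% of the 293 tested features had all CAF+DEX libraries below all DEX libraries. Mir142 averaged 94348 ± 10152 FPKM in CAF+DEX and 116761 ± 15840 FPKM in DEX (SD, n = 3 each). Mir342 averaged 2525 ± 210 FPKM in CAF+DEX and 3134 ± 447 FPKM in DEX (SD, n = 3 each).

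In limma, 0 of 5 members and 0% of the 293 tested features passed a Benjamini-Hochberg adjusted p of 0.05 in CAF+DEX against DEX. At an unadjusted p under 0.05 there were 2 members and 23 features, and limma-voom on the recovered reads also called 0 of each. Mir142 had an adjusted p of 0.538 in limma, with an unadjusted 95% interval of -0.55 to -0.06 for the log2 fold change. Mir342 had an adjusted p of 0.551 in limma, with an interval of -0.57 to -0.04. Without DEX library 2, which held the highest level of both, the fold changes were -0.20 for Mir142 and -0.19 for Mir342. The intervals of the others included 0, from -0.23 to 0.20 for Mir223, -0.46 to 0.30 for Mir150 and -0.40 to 0.33 for Mir155. The median of the 5 members was -0.08, against -0.02 over all tested features. All 5 values were below 0 in this model, but Mir223 stood at 0.02 and Mir150 at 0.02 with quantile normalization, and Mir223 at 0.01 with median-ratio scaling.

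The drug combination was also compared with vehicle, sharing the Control libraries with CAF against Control. Mir142 and Mir342 again had all CAF+DEX libraries below all Control libraries, which is 2 of 5 members against 7.51% of the 293 features. Mir142 averaged 94348 ± 10152 FPKM in CAF+DEX and 122740 ± 5601 FPKM in Control (SD, n = 3 each). Its log2 fold change was -0.38 (SE 0.11, limma adjusted p = 0.351), and that of Mir342 was -0.33 (SE 0.12, limma adjusted p = 0.364). Mir223, with -0.15 (SE 0.10), Mir150, with -0.15 (SE 0.17), and Mir155, with -0.10 (SE 0.17), overlapped with Control. The members' median was -0.15, against -0.01 over all features. In limma 0 of 5 members and 0% of features passed, with 2 members and 30 features at an unadjusted p under 0.05, and limma-voom called 0 of each. Without CAF+DEX library 1, Mir155 stood at -0.31, and without CAF+DEX library 5 it stood at 0.03.

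Dextromethorphan alone gave values near those of vehicle for every member. Mir142 averaged 116761 ± 15840 FPKM in DEX and 122740 ± 5601 FPKM in Control (SD, n = 3 each), a log2 fold change of -0.08 (SE 0.11). The interval for Mir142 ran from -0.33 to 0.17, and the widest interval, that of Mir150, from -0.45 to 0.31. True differences within these intervals were therefore not excluded at 3 libraries per group. Mir223 had -0.13 (SE 0.10), Mir150 -0.07 (SE 0.17), Mir155 -0.07 (SE 0.17) and Mir342 -0.02 (SE 0.12). The 5 values had a median of -0.07, against 0.00 over all features. The DEX libraries lay below the Control libraries in 0 of 5 members, where 4.1% of features did so. In limma 0 of 5 members and 0% of the 293 features passed, with 0 members and 13 features at an unadjusted p under 0.05, and limma-voom called 0 of each. DEX library 2 held the highest level of Mir142, Mir150 and Mir342 among the 12 libraries.

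**Figure D2:**
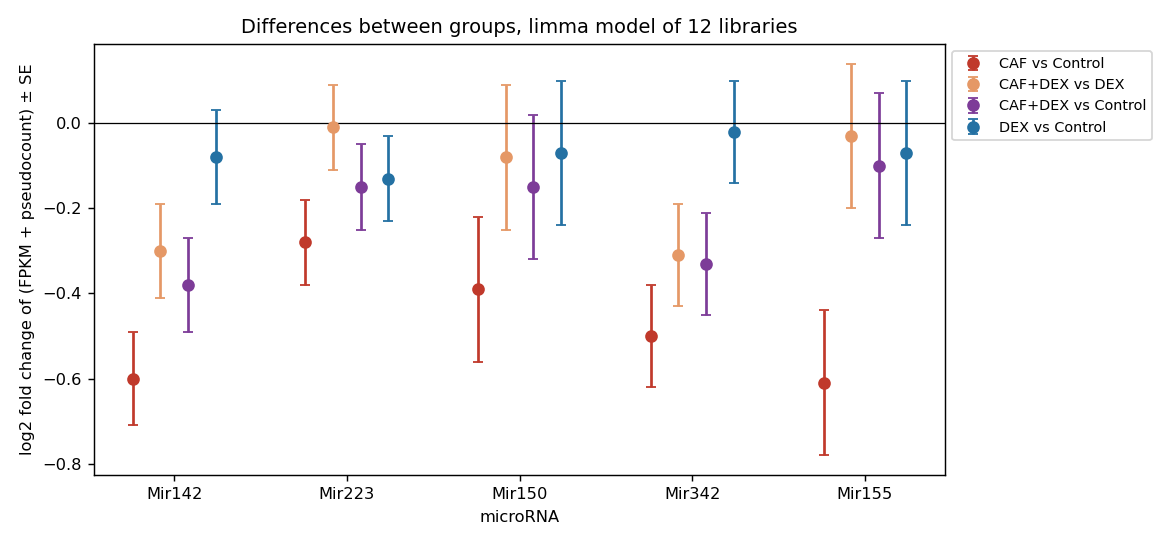
The log2 fold change with its SE (y axis) of each microRNA (x axis) in 4 comparisons of the limma model, where values below 0 are lower in the first group named. For Mir142 and Mir342 the CAF+DEX against DEX points stand at -0.30 and -0.31, and for Mir223 and Mir155 at -0.01 and -0.03, of which Mir223 turns to 0.01 with median-ratio scaling.

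Setting the combination against caffeine alone shares the CAF libraries with the contrast known at the choice of members, so it is given without a test. Means of all 5 members were higher in CAF+DEX, with 0.21 as the median of the log2 fold changes against 0.00 over all features. Mir155 had 833.9 ± 224.2 FPKM in CAF+DEX and 578.8 ± 84.8 FPKM in CAF (SD, n = 3 each), and was the 1 member of 5 whose CAF+DEX libraries all lay above the CAF libraries, as in 3.41% of the tested features. Its difference of 0.50 (SE 0.17) became 0.29 without CAF+DEX library 1. The other members had 0.24 (SE 0.17) for Mir150, 0.21 (SE 0.11) for Mir142, 0.17 (SE 0.12) for Mir342 and 0.14 (SE 0.10) for Mir223. Mir150 stood at 0.05 without CAF+DEX library 2.

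The interaction is the caffeine difference in rats given dextromethorphan minus that in rats not given it, and was likewise not tested for the members. It was 0.57 (SE 0.24) for Mir155, 0.30 (SE 0.25) for Mir150, 0.29 (SE 0.16) for Mir142, 0.27 (SE 0.14) for Mir223 and 0.19 (SE 0.17) for Mir342. The value of Mir155 was 0.37 without CAF+DEX library 1. That of Mir342 was 0.08 without CAF library 5.

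Ratios between members within a library do not depend on the scaling of the library, and they were used to set the pan-haematopoietic, myeloid and lymphoid microRNAs against each other. The log2 ratio of Mir223 to Mir142 was -2.65 ± 0.18 in CAF+DEX and -2.94 ± 0.16 in DEX (SD, n = 3 each), a difference of 0.29 (two-sided exact permutation p = 0.2, or 0.4 adjusted over the 6 ratios tested). Values reached -2.86 in CAF+DEX, below the -2.77 of the highest DEX library, so the groups overlapped. In CAF against Control the same ratio was -2.68 to -2.52 in CAF and -2.90 to -2.88 in Control, a difference of 0.31 given without a test. With 3 libraries against 3, the smallest two-sided p that the exact test can give is 0.1.

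The lymphoid members were set against Mir142 in the same way. The ratio of Mir342 to Mir142 differed by 0.00 between CAF+DEX (-5.22 ± 0.23) and DEX (-5.22 ± 0.05, SD, n = 3 each; exact permutation p = 1.0), and the libraries of both groups overlapped. A p of this size does not show that the ratio was the same. The ratio of Mir150 to Mir142 was -3.20 ± 0.25 in CAF+DEX and -3.43 ± 0.08 in DEX (SD, n = 3 each), a difference of 0.22 (exact permutation p = 0.2, adjusted 0.4).

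Mir342 set against Mir223 was the only ratio of the 6 whose CAF+DEX libraries did not overlap with the DEX libraries. It ran from -2.71 to -2.45 in CAF+DEX and from -2.41 to -2.14 in DEX, a difference of -0.29 (two-sided exact permutation p = 0.1, the smallest the design allows, and 0.4 adjusted over 6 ratios). In CAF against Control it ran from -2.68 to -2.56 in CAF and from -2.45 to -2.36 in Control, a difference of -0.21. The ratio of Mir150 to Mir223 differed by -0.07 between CAF+DEX and DEX (exact permutation p = 0.7) and by -0.10 between CAF and Control. The ratio of Mir155 to Mir142 differed by 0.27 between CAF+DEX and DEX (exact permutation p = 0.6), or by -0.03 without CAF+DEX library 1.

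**Figure D3:**
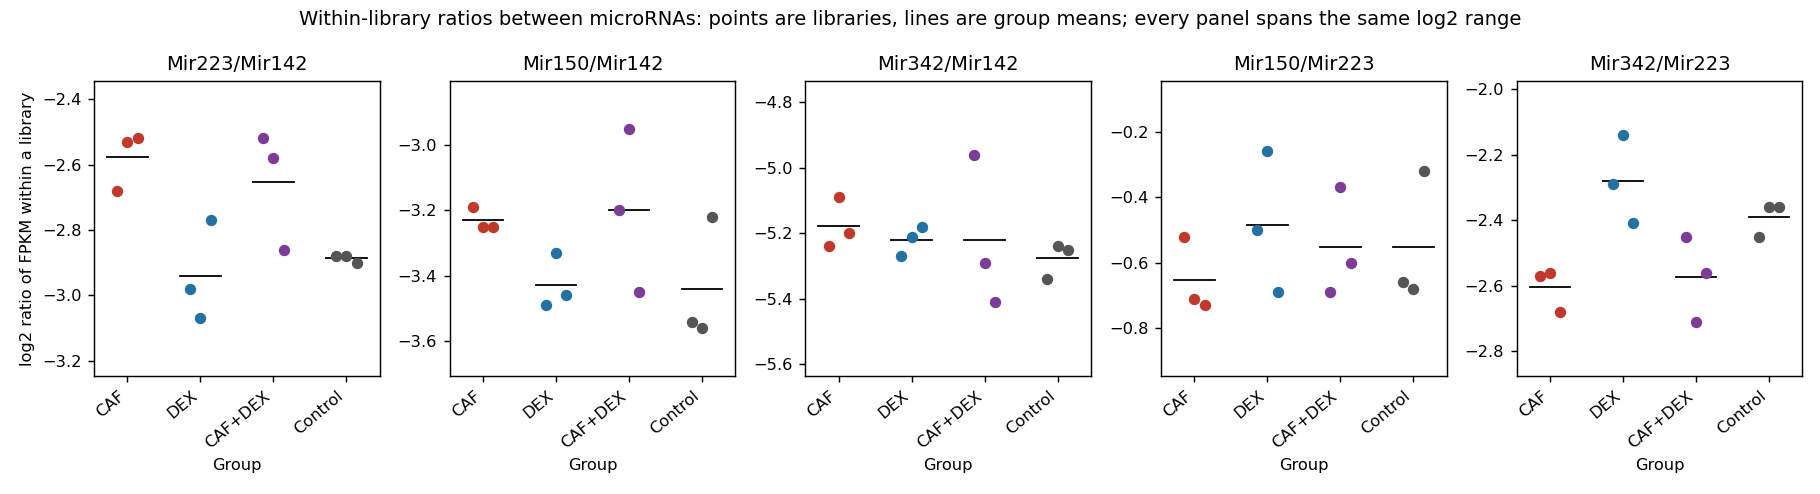
The log2 ratio of FPKM between microRNA pairs within a library (y axis, the same span in every panel) in the CAF, DEX, CAF+DEX and Control libraries (x axis), with 1 point per library and lines for group means. The Mir342/Mir223 points of CAF+DEX, at most -2.45, lie below those of DEX, at least -2.41, while the Mir150/Mir223 points of the 4 groups overlap.

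MicroRNAs of red blood cells were examined beside the members as markers of blood. Mir144, Mir451a and rno-mir-486 were summed as a measure of erythroid RNA, and all 3 were above 0 in every library. The sum was 7502 to 14237 FPKM in CAF, 11313 to 15213 FPKM in DEX, 10589 to 11747 FPKM in CAF+DEX and 12584 to 15141 FPKM in Control. Their log2 fold changes were all below 0, with a median of -0.53 between CAF and Control and -0.23 between CAF+DEX and DEX. None of the 3 passed in limma (0 calls in either comparison), and rno-mir-486 stood at 0.02 in the second with a block on library number. CAF library 1 had an erythroid sum of 14237 FPKM, within the range of the Control libraries, and a Mir142 level of 93568 FPKM, below all of them. The log2 ratio of Mir142 to the erythroid sum was computed after seeing these values. It was 3.09 ± 0.32 in CAF, 3.14 ± 0.12 in DEX, 3.09 ± 0.10 in CAF+DEX and 3.17 ± 0.14 in Control (SD, n = 3 each). The CAF libraries 1, 2 and 5 had 2.72, 3.31 and 3.24, and whether the groups differ in this ratio was not tested. The part of residual blood in the members' differences was not tested.

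**Figure D4:**
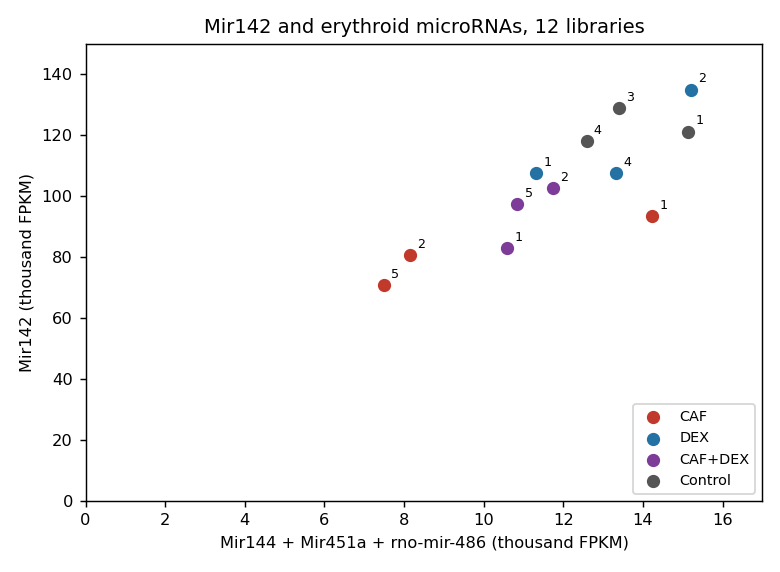
Mir142 (y axis, FPKM scaled as labelled) against the sum of Mir451a, Mir144 and rno-mir-486 (x axis, same unit), with 1 point per library, coloured by group and numbered as in the column headers. CAF libraries 2 and 5 are low on both axes, with erythroid sums of 8136 and 7502 FPKM, while CAF library 1 is at 14237 FPKM on the x axis.

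Striated muscle microRNAs were examined beside the members as markers of another tissue. Of 5 such features, 4 had log2 fold changes below 0 between CAF and Control and 0 passed in limma. The median of the 5 fold changes was -0.81 (log2), the value of Mir208b, which had only 0 to 4 reads in a library. Mir133b had 0 to 1. The 2 most abundant, Mir1b and Mir133a-2, had 229 to 1577 and 4 to 58 reads in a library. Their log2 fold changes between CAF and Control were -0.94 (SE 0.43) and -1.26 (SE 0.57). In CAF+DEX against DEX they were 0.32 (SE 0.43) and 0.17 (SE 0.57). In that comparison 2 of the 5 features were lower and 3 higher, with a median of 0.00, and some of these signs changed with the processing. The sum of the 5 features was 1003 to 2743 FPKM in CAF, 2294 to 3021 FPKM in DEX, 1747 to 4407 FPKM in CAF+DEX and 2330 to 6139 FPKM in Control. Their part in the members' differences was not tested. Hepatocyte microRNAs held the label of the tissue, with Mir192 at 1277684 to 1487677 FPKM over the libraries. The median of 7 hepatocyte features was 0.02 in CAF against Control and 0.01 in CAF+DEX against DEX. Among them Mir802 stood furthest from 0, at 0.36 (SE 0.10) and 0.21 (SE 0.10), and did not pass in limma in either.

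The pattern of each member over the 12 libraries was set against all other tested features by Pearson's r of log2(FPKM + 4.01), with Spearman's rho beside it. These are descriptions without a test, and they hold the differences between groups as well as those between libraries. The group differences include the one between CAF and Control, known when the members were chosen. Likeness between members is therefore not independent of that choice. Mir142 was most like Mir20b (r 0.93, rho 0.94), Mir342 (r 0.92, rho 0.92) and Mir146a (r 0.88, rho 0.90), the brake on innate immune signalling. Mir20b averaged only 64.8 reads. Mir342 was most like Mir142, rno-mir-486 (r 0.88, rho 0.87) and Mir147 (r 0.87, rho 0.84).

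Mir223 was most like rno-mir-486 (r 0.89, rho 0.88), Mir150 (r 0.81, rho 0.87) and Mir342 (r 0.80, rho 0.74). Mir150 was most like Mir223, Mir185 (r 0.80, rho 0.85) and Mir142 (r 0.79, rho 0.80). No member was among the 3 features most like Mir155, which were Mir132 (r 0.82, rho 0.62), Mir138-2 (r 0.76, rho 0.72) and Mir204 (r 0.71, rho 0.64). Mir132 and Mir138-2 averaged 6.7 and 8.2 reads, where counting error is large. Against the other members, Mir155 had r from 0.33 with Mir150 to 0.64 with Mir342.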

How the data were processed

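MicroRNA sequencing of liver gave 12 libraries, 3 in each of 4 groups. The authors deposited their values as FPKM, and cutadapt 3.7, STAR 2.7.11b, featureCounts of Subread 2.0.6 and build rn7 are named, without parameters, in the submitters' processing notes. Whether the unique molecular indices of the library kit were collapsed is not stated in any source used here. FPKM times length in kilobases summed to 1000000 in each library. Read totals were recovered as the smallest total that made all values multiples of 0.01 read, and 50.5 to 58.3% of features above 0 then had whole reads (tolerance 0.001). Column headers give the group of a library but match no sample title. The chi-square of recovered reads between replicates, divided by its degrees of freedom, was 51.4 to 265.8 over the 135 features averaging at least 100 reads, so no pair agreed within sampling noise.

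Features above 0 in at least 3 libraries were fitted with limma-trend (limma 3.58.1, R 4.3.3) on log2(FPKM + 4.01), with a pseudocount equal to the 10th percentile of their values above 0, with 4 group means and Benjamini-Hochberg adjustment over 293 features. The fit was run on simulated data, where detection was required only for changes larger than those of the members. Its outcome for differences of the members' size is not given here. The members and lists were chosen with earlier results of these data known. Named features are the members, the 3 most like each by Pearson's r, the erythroid features and the 2 most abundant of each marker list where a result turns on them. Mir802, Mir208b and Mir133b are named as well, to show what their list medians hold. Alternatives were other pseudocounts, filters, scalings, limma-voom, fewer groups, a block and leaving out each library.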

Additional observations from a re-analysis of the deposited data

How the results depend on the processing

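The 5 members passed in 0 of the 3 tested comparisons under every alternative run, and no member changed sign in CAF against Control, where the median ran from -0.54 to -0.39 over single left-out libraries. In CAF+DEX against DEX, values near 0 changed sign: Mir223 stood at 0.02 with quantile normalization, 0.01 with median-ratio scaling and 0.06 with the replicate block, Mir150 at 0.02 and 0.00 with the first and last of these, and Mir155 at 0.04 with the block. Leaving out 1 library each gave -0.11 to 0.06 for Mir223, -0.27 to 0.08 for Mir150, -0.24 to 0.10 for Mir155 and -0.27 to 0.02 for the median of the members in that comparison. It gave -0.31 to 0.03 for Mir155 and -0.34 to -0.07 for the median in CAF+DEX against Control, and -0.22 to 0.02 for Mir150 and -0.14 to 0.06 for Mir342 in DEX against Control. The ratios of CAF+DEX to DEX ran from -0.13 to 0.09 for Mir342 over Mir142, -0.03 to 0.43 for Mir155 over Mir142 and -0.17 to 0.05 for Mir150 over Mir223. The cause was not tested.

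Over all features, the 2 calls in CAF against Control became 4 with quantile normalization and 0 with the replicate block or with only the compared groups, and ran from 0 to 10 over left-out libraries. The 0 calls of CAF+DEX against DEX became 1 with quantile normalization and ran from 0 to 1 over left-out libraries. Those of CAF+DEX against Control became 2 with the larger pseudocount or no filter and 1 with quantile normalization, those of DEX against Control became 1 with the replicate block and ran from 0 to 1, and those of the interaction ran from 0 to 1. The block used the numbers in the column headers. Libraries of CAF and CAF+DEX with the same number had correlations of their deviations from the group mean of -0.11, 0.10 and 0.08, so the numbers are taken as names. Mir155 had the fewest reads of the members, at 93 to 223, and 3 libraries per group limit all members.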

Other observations

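Other microRNAs linked to leukocytes and inflammation had values on both sides of 0. Of 18 such features tested, 12 were lower and 6 higher in CAF than in Control, the median being -0.13 (log2). In limma 1 passed, Mir146a at -0.49 (SE 0.09), where 0.683% of all features did. The list was chosen with earlier results of these data known, so nothing is read from that call. In that contrast 0 features were called with the replicate block or with only the compared groups. In CAF+DEX against DEX 10 of the 18 were lower and 8 higher, with a median of -0.03, and 0 passed. Mir147, a microRNA induced in activated macrophages and chosen here for its likeness to Mir342, differed by -1.05 (SE 0.31) between CAF and Control and by -0.34 (SE 0.31) between CAF+DEX and DEX, at 20 to 106 reads in a library. Mir511, which lies in the mannose receptor gene Mrc1 of macrophages and was chosen after its values were seen, had -0.16 (SE 0.14) and 0.10 (SE 0.14) in these comparisons. Mir21, the most abundant feature of that list and not specific to leukocytes, had 0.04 (SE 0.11) and -0.07 (SE 0.11), values near 0 whose sign changed with quantile normalization in the first and with the block in the second.

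Markers of other liver cells are given as values. The median fold change (log2) of 4 stellate and smooth muscle features was 0.15 in CAF against Control and 0.05 in CAF+DEX against DEX, and that of 3 biliary and epithelial features was -0.05 and -0.20, with 0 calls among them in limma. Mir126a, the endothelial feature, stood at 20.2 to 67.7 FPKM over the libraries, or 8 to 24 reads. Its log2 fold change (SE 0.31 in each) was 0.19 between CAF and Control, 0.28 between CAF+DEX and DEX and -0.49 between DEX and Control.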
